A study of Mus musculus with 8 samples.

Results

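The AP-1 transcription factor family was followed in CD4+ T cells of the mouse spleen as 10 genes, chosen by symbol: Fos, Fosb, Fosl1, Fosl2, Jun, Junb, Jund, Batf, Batf3 and Atf3. Each of the 10 had a row among the 27179 genes of the deposited table, and 9 of them were among the 12605 genes expressed highly enough to be tested, Batf3 being the exception. RNA sequencing covered 8 libraries of offspring of the strain C.Cg-Foxp3tm2Tch/J, whose Foxp3 gene carries a green fluorescent reporter, at 8 weeks of age. The 4 groups of 2 libraries were unstimulated cells (0 hours) of control offspring, unstimulated cells of Cd offspring, and cells of each kind cultured for 16 hours with anti-CD3/CD28 beads. The parents of Cd offspring drank water with 10 ppm CdCl2 before mating and, for the dams, through gestation, and the parents of control offspring drank unspiked water. Replicates are numbered 6 and 7 in each group. Unstimulated cells were lysed directly after sorting, and no library of cells cultured for 16 hours without beads was analysed here. Culture, bead stimulation and the time since isolation from the spleen and sorting therefore cannot be told apart in what follows.

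AP-1 is a dimer of basic leucine zipper proteins that binds short DNA elements with the core TGACTCA or TGACGTCA. Jun proteins pair with themselves or with Fos proteins, whereas Fos proteins need a Jun partner, and Batf and Batf3 pair with Jun proteins and bind composite sites together with IRF4 or IRF8. Several of the genes belong to the immediate early genes, which are transcribed within minutes of a signal without new protein synthesis, and AP-1 together with NFAT is known for switching on Il2 and other cytokine genes after engagement of the T cell receptor.

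Stimulated and unstimulated cells differed widely in their AP-1 transcripts. Fos, Fosb, Jun, Junb and Jund fell, Fosl1 and Atf3 rose from low levels, and Batf and Fosl2 changed by less than 2-fold. Parental Cd exposure moved no member past the threshold. In stimulated cells the libraries of the 2 exposures did not overlap for 5 of the 9 members, 4 higher and 1 lower in Cd offspring, beside 36.7% of all genes.

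Depth was 15542732 to 25486791 reads counted on genes per library, recovered from the steps between low values. RPKM below is reads scaled by transcript length and library total, back-transformed from the deposited log2 values. The CD4 T cell markers (Cd3d, Cd3e, Cd3g, Cd4, Cd28, Trac and Lck) summed to 1917 to 2933 RPKM in every library. The B cell markers summed to at most 4.89, the myeloid markers to at most 2.12 and the erythroid markers to at most 1.72 RPKM. Of these, Ms4a1, Cd14, S100a8, Hba-a1 and Hba-a2 were at 0. Cd79a had 2.87 to 4.73, Itgam 0.251 to 1.85 and Alas2 0.365 to 1.72 RPKM. The X-linked Xist was expressed and the Y-linked genes were near 0 in all 8 libraries, so that the groups did not differ in sex. The labels do not say whether the replicates came from separate animals, so that p values measure the spread between these libraries. In bulk RNA, fewer cells that express a gene and less RNA per cell cannot be told apart.

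The promoters of 4 members that fell and of Batf, which did not, are shown because these genes carry the contrast within the family. Each is 280 bases long, from 250 before to 30 after the start of the RefSeq transcript (GRCm38.p6), written 5′ to 3′ on the strand of the gene. Capitals mark matches to the motifs searched. The windows are chr12:85473640-85473919 (plus strand), chr7:19310016-19310295 (minus), chr4:95052193-95052472 (minus), chr8:84978719-84978998 (minus) and chr12:85686470-85686749 (plus).
Fos: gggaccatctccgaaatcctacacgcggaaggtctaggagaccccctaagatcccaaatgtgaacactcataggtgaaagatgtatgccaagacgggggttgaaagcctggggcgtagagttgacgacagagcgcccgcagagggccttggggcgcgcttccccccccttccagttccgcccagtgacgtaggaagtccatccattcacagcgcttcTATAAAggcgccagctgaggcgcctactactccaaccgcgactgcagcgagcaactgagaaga
Fosb: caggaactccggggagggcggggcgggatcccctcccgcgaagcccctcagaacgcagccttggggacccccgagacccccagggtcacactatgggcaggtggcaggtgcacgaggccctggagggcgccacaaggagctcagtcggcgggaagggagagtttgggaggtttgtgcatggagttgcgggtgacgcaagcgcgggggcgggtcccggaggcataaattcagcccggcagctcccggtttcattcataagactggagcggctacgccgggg
Jun: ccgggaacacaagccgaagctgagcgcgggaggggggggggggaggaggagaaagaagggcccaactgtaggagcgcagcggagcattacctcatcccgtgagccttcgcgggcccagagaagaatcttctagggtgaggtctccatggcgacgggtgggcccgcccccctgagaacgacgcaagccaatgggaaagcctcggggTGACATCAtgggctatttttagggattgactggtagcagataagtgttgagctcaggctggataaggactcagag
Junb: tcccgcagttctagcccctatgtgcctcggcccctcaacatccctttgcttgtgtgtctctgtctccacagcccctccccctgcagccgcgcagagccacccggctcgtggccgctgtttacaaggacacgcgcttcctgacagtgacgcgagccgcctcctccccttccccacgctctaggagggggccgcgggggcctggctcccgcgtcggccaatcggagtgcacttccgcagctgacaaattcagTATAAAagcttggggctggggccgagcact
Batf: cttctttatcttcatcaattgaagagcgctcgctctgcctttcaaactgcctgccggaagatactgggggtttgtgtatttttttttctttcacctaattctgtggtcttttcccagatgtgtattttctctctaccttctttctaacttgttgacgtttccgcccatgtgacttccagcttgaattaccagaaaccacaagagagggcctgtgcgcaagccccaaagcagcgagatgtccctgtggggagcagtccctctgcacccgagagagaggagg

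Promoters of 9 of the 10 members were in the RefSeq table, without Fosl1, and 5 motifs were searched on both strands from 250 bases before to 50 after the start. TATAAA, the letters of a TATA box, matched in Fos at position -33 from the start and in Junb at position 1. TGACATCA, the variant AP-1 element known from the Jun promoter, matched in Jun at position -45. TGACTCA, TGACGTCA and the CArG box, to which serum response factor binds, matched in none of the 9 windows, which says only that these letters are not there. Among all 32851 promoters of the table, TATAAA was found in 13.6%, TGACTCA in 5.20%, TGACATCA in 3.62%, TGACGTCA in 1.79% and the CArG box in 1.63%. Each match lay in a different promoter, so that no overlap between motifs was possible.

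Fos, the founding member of its subfamily and a strong activator once paired with a Jun protein, had 577 and 651 RPKM in unstimulated cells of control offspring and 570 and 531 RPKM in those of Cd offspring. In stimulated cells it had 11.1 and 11.2 RPKM in control and 16.3 and 14.3 RPKM in Cd offspring. Every unstimulated library was thus far above every stimulated one, without overlap. The log2 fold change with stimulation was -5.77 (standard error, SE, 0.08) in control offspring, a 54.5-fold lower level, with an adjusted p of 7.74e-08 from limma. In Cd offspring it was -5.16 (SE 0.08), a 35.8-fold lower level, with an adjusted p of 7.99e-08 from limma. Among all genes ranked by level, Fos stood at place 77 in unstimulated and place 6371 in stimulated control cells.

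Fosb, which encodes a close relative of Fos, had 175 and 217 RPKM in unstimulated control cells and 199 and 197 RPKM in unstimulated Cd cells. After stimulation it had 3.39 and 3.72 RPKM in control and 5.42 and 5.78 RPKM in Cd offspring. The stimulated and unstimulated libraries did not overlap, and the 2 Cd libraries were the higher ones among the stimulated. Its log2 fold change with stimulation was -5.74 (SE 0.10, limma adjusted p = 8.94e-08) in control offspring. In Cd offspring it was -5.12 (SE 0.10, limma adjusted p = 1.36e-07).

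Fosl1 and Fosl2 encode the Fos-related antigens FRA1 and FRA2, which lack the strong activation domain of Fos. Fosl2 had 6.01 and 7.05 RPKM in unstimulated control cells and 6.24 and 5.71 RPKM in unstimulated Cd cells, and after stimulation 10.5 and 10.8 RPKM in control and 11.9 and 11.5 RPKM in Cd offspring. The stimulated libraries lay above the unstimulated ones without overlap, but the difference was under 2-fold and was not called. It was 1.63-fold in control offspring (log2 fold change 0.70, SE 0.10, limma adjusted p = 0.00040) and 1.94-fold in Cd offspring (log2 fold change 0.96, SE 0.10, limma adjusted p = 7.77e-05). Without the Cd unstimulated replicate 6 the latter log2 fold change was 1.02, past the threshold.

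Fosl1 was among the lowest members. It had 0.228 and 0.252 RPKM in unstimulated control cells, 0.453 and 0.343 in unstimulated Cd cells, 1.51 and 1.42 in stimulated control cells and 1.52 and 1.27 in stimulated Cd cells. These levels rest on few reads, 7 and 7 in the unstimulated control libraries (7 reads have an exact 95% Poisson interval of 2.81 to 14.4) and 40 to 57 in the stimulated libraries. All stimulated libraries were above all unstimulated ones. The increase was 2.20 on the log2 scale (SE 0.23, limma adjusted p = 0.000105) in control and 1.59 (SE 0.23, limma adjusted p = 0.000625) in Cd offspring. In the GENCODE vM21 annotation, 57.2% of the exon bases of Fosl1 are shared with Ccdc85b on the other strand, and whether counting used the strand is not given in the sources used here, so that reads of the pair may be mixed. Ccdc85b itself had 3.36 to 5.28 RPKM in unstimulated and 4.17 to 5.07 RPKM in stimulated libraries.

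**Figure D1:**
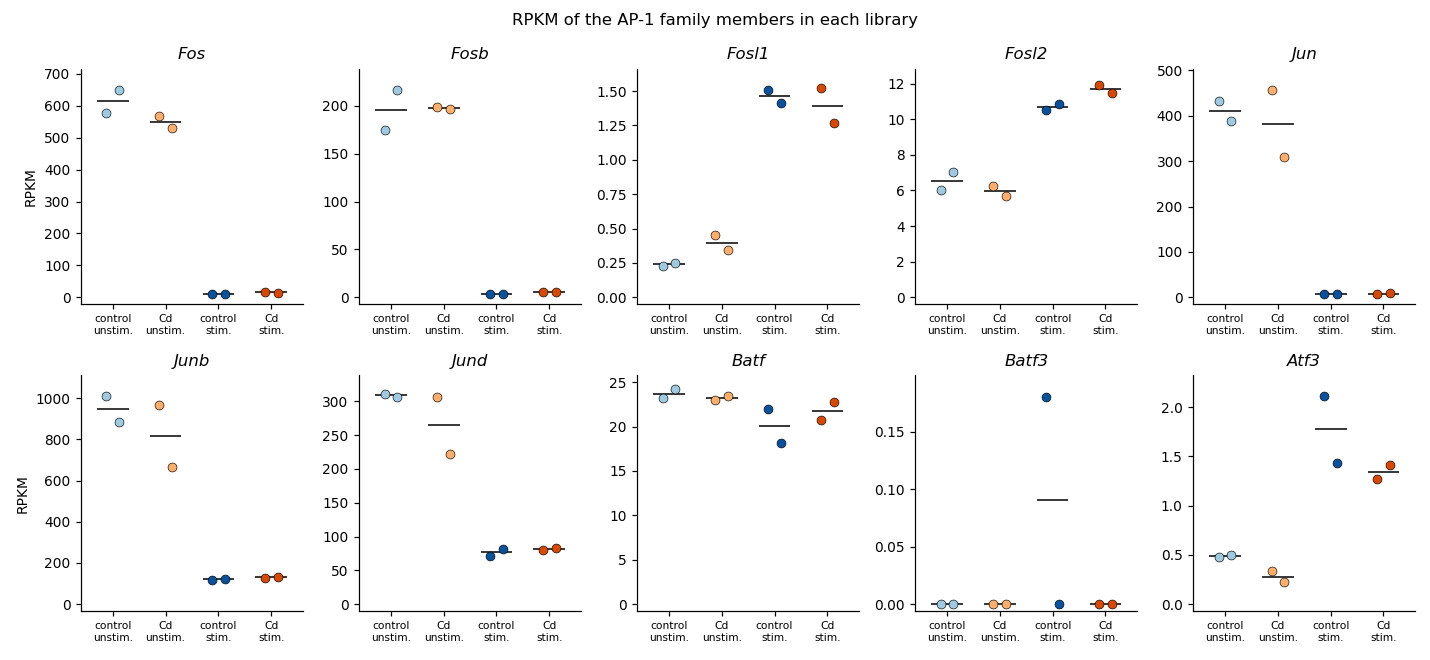
RPKM (vertical axes, linear and starting at 0, a scale of its own for each gene) of the 10 AP-1 family members in the 8 libraries, by group. Points are libraries, replicate 6 on the left and replicate 7 on the right, and bars are means of 2. Fos, Fosb, Jun, Junb and Jund are high in the 4 unstimulated libraries and low in the 4 stimulated ones, Fosl1, Fosl2 and Atf3 go the other way, Batf lies between 18.1 and 24.2 RPKM throughout, and Batf3 is above 0 in 1 library.

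Jun, the partner with which Fos forms the classical dimer, had 433 and 389 RPKM in unstimulated control cells and 458 and 308 RPKM in unstimulated Cd cells. In stimulated cells it had 7.63 and 6.68 RPKM in control and 6.46 and 9.43 RPKM in Cd offspring. The stimulated libraries were all far below the unstimulated ones, whereas the 2 exposures overlapped in both states. With stimulation, the log2 fold change of Jun was -5.82 (SE 0.22, limma adjusted p = 7.74e-07) in control offspring, a 56.7-fold lower level, and -5.57 (SE 0.22, limma adjusted p = 1.06e-06) in Cd offspring, a 47.5-fold lower level. Of the 12605 genes tested, Jun, Fos and Fosb held places 3, 4 and 5 counted from the strongest decrease in control offspring, and places 3, 6 and 7 in Cd offspring. The antisense gene Junos shares 7.28% of the exon bases of Jun.

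Junb, a Jun protein with weaker activation on its own and the main Jun partner of Batf in T helper cells, had the highest RPKM of the members in every library. It had 1012 and 884 RPKM in unstimulated control cells and 964 and 667 RPKM in unstimulated Cd cells, and it had 116 and 124 RPKM in stimulated control cells and 129 and 131 RPKM in stimulated Cd cells. The stimulated libraries were lower without overlap, yet Junb kept first place in the family by RPKM. That place rests on the counted lengths, 1840 bases for Junb and 2878 for Jund. In reads, Jund exceeded Junb in the control stimulated replicate 7 (4564 against 4422). Junb had slightly more reads in the control stimulated replicate 6 (3313 against 3218) and in the Cd stimulated libraries (5208 against 5053 and 6139 against 6131). Prdx2 on the other strand shares 7.52% of the annotated exon bases of Junb and had 39.7 to 46.1 RPKM in unstimulated and 77.9 to 85.6 RPKM in stimulated libraries. The log2 fold change was -2.98 (SE 0.16, limma adjusted p = 2.93e-06) in control and -2.63 (SE 0.16, limma adjusted p = 5.52e-06) in Cd offspring, decreases of 7.90-fold and 6.18-fold.

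Jund, the Jun protein found in many resting cells, had 310 and 307 RPKM in unstimulated control cells and 307 and 222 RPKM in unstimulated Cd cells. After stimulation it had 71.9 and 81.5 RPKM in control and 79.9 and 83.6 RPKM in Cd offspring. Jund thus showed the smallest decrease of the 5 members that fell. Its log2 fold change was -2.01 (SE 0.14, limma adjusted p = 1.05e-05) in control and -1.67 (SE 0.14, limma adjusted p = 2.76e-05) in Cd offspring. The antisense gene Gm11175 shares 877 of the 1668 GENCODE exon bases of Jund (52.6%), whereas reads were counted on 2878 bases. Without strand, reads on the shared part cannot be told apart.

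Batf, which pairs with Jun proteins at sites shared with IRF4 and is needed for several T helper programs, had 23.2 and 24.2 RPKM in unstimulated control cells and 23.0 and 23.4 RPKM in unstimulated Cd cells. In stimulated cells it had 21.99 and 18.1 RPKM in control and 20.8 and 22.8 RPKM in Cd offspring. The stimulated libraries were slightly below the unstimulated ones. The log2 fold change was -0.25 (95% interval -0.47 to -0.02, adjusted p = 0.0518 from limma) in control and -0.09 (95% interval -0.31 to 0.13, adjusted p = 0.418 from limma) in Cd offspring, and neither was called. The intervals leave out a change of 2-fold in either direction. IRF4 and IRF8, the factors that bind DNA together with Batf, are coded by genes that rose in the same libraries, Irf4 from 2.27 to 2.86 RPKM in unstimulated to 486 to 561 RPKM in stimulated libraries and Irf8 from 1.46 to 2.36 to 36.7 to 56.7 RPKM.

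Batf3, which is best known from dendritic cells, was listed at 0 in 7 libraries and had 0.181 RPKM in the control stimulated replicate 6. With a value in a single library its reads could not be recovered, and it was not tested. Atf3, a stress-inducible factor that pairs with Jun proteins and can act as a repressor, had 0.478 and 0.497 RPKM in unstimulated control cells and 0.339 and 0.222 RPKM in unstimulated Cd cells. It had 2.12 and 1.43 RPKM in stimulated control cells and 1.27 and 1.41 RPKM in stimulated Cd cells, on 55 to 71 reads, against 9 to 17 reads in unstimulated libraries. The stimulated libraries were higher without overlap. Atf3 rose by 1.65 on the log2 scale (SE 0.27, limma adjusted p = 0.00106) in control and 1.93 (SE 0.27, limma adjusted p = 0.000464) in Cd offspring. Without the control stimulated replicate 6 the increase in control offspring was 1.38 on the log2 scale and was no longer called (adjusted p = 0.0101 from limma). The calls of Fosl1 and Atf3 are also the ones that depend on the treatment of low values, since with 1 RPKM added before the logarithm both stayed under 2-fold and 5 members were called in each kind of offspring. Both passed the filter on low values through their stimulated libraries alone, all their unstimulated levels being under 0.5 RPKM, so that the counts of members called higher carry no weight of their own.

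Counted together, 7 of the 9 members tested passed both thresholds (limma with Benjamini-Hochberg adjustment, p under 0.01, and a change above 2-fold) between stimulated and unstimulated control cells, against 18.7% of all genes tested. Of the 7, 2 were higher and 5 lower, where 11.5% of all genes were called higher and 7.17% lower. In Cd offspring 7 of 9 were called, again 2 higher and 5 lower, against 18.6% of all genes, with 11.4% higher and 7.24% lower. In both, the 2 higher ones were Fosl1 and Atf3, which passed the filter through their stimulated libraries alone. The counts of 7 are therefore not read against these shares, and only the 5 lower calls are. The median log2 fold change of the 9 members was -2.01 in control and -1.67 in Cd offspring, beside medians of 0.07 and 0.05 over all genes tested. The fold changes of each comparison come from its own 4 libraries, while the spread behind the p values is shared over all 8. Levels of other cell markers moved along with stimulation. The summed CD4 T cell markers went from 2759 to 2933 RPKM in unstimulated to 1917 to 2008 RPKM in stimulated libraries, and the CD8 and NK cell markers from 14.6 to 16.9 to 10.6 to 12.4 RPKM, with Klrb1c and Klrk1 of NK cells called lower among the 3 of 5 tested, Cd8b1 between 9.40 and 11.7 RPKM throughout and Cd8a at or below 0.160 RPKM. The myeloid markers went from 1.96 to 2.12 RPKM to 0.416 to 0.597 RPKM, and Itgam, the 1 of 7 tested, was called lower in both kinds of offspring (log2 fold changes -2.27 and -2.03). The regulatory T cell markers went from 8.51 to 9.93 to 104 to 129 RPKM, of which Il2ra, also a gene of activated T cells, made up 94.0 to 117 RPKM, and Foxp3 had 4.48 to 5.08 RPKM before and 5.98 to 7.69 RPKM after stimulation. Their part in the result was not tested.

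**Figure D2:**
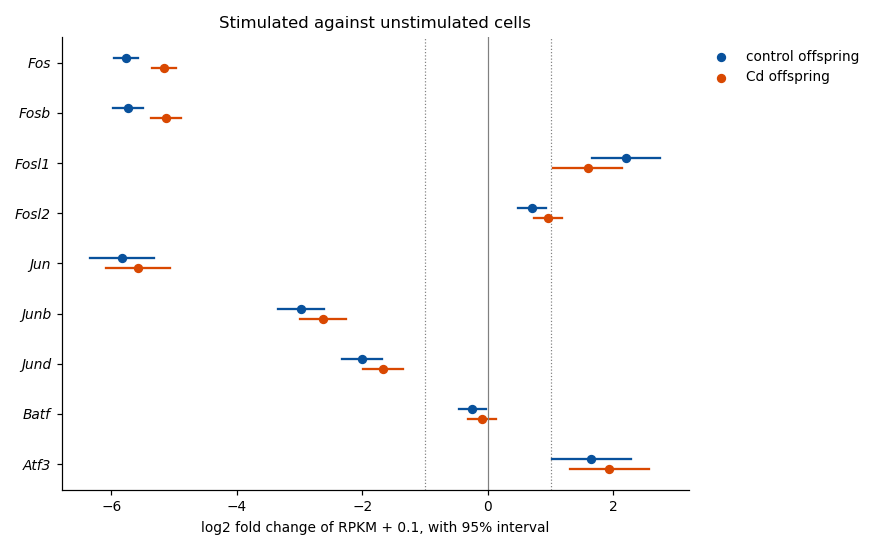
Log2 fold change of RPKM + 0.1 between stimulated and unstimulated cells (horizontal axis) for the 9 members tested, in control and in Cd offspring. Points are limma estimates from 2 libraries against 2, lines are 95% intervals, and dotted lines mark 2-fold. Jun, Fos and Fosb lie between -5.82 and -5.12, Junb and Jund between -2.98 and -1.67, and Batf is near 0.

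**Figure D3:**
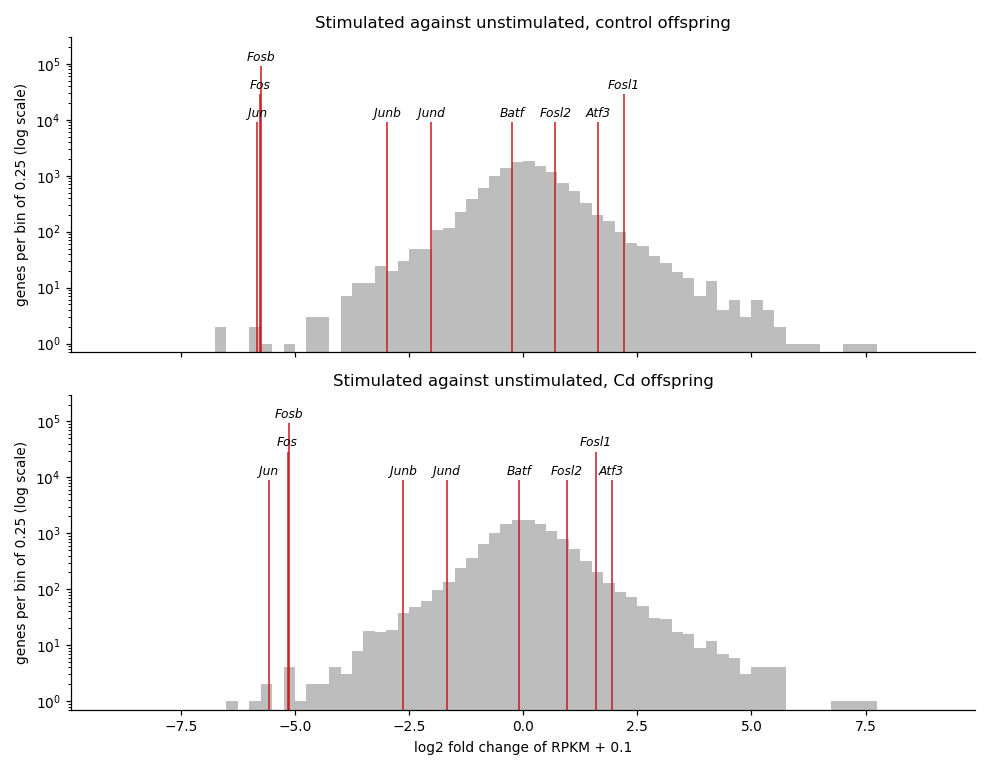
Number of genes (vertical axis, log scale) per bin of 0.25 in the log2 fold change with stimulation (horizontal axis) over the 12605 genes tested, with the 9 members marked by vertical lines whose height carries no value. Jun, Fos and Fosb lie at the lower edge of the distribution, at places 3 to 7 from the strongest decrease in the 2 panels, while Batf lies in its centre.

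The sum of the 10 members shrank and its make-up changed. Summed RPKM was 1956 to 2537 in the 4 unstimulated and 246 to 281 in the 4 stimulated libraries, and reads on the members were 0.476% to 0.612% and 0.0569% to 0.0656% of all reads counted. RPKM is scaled by transcript length, so that shares of the sum compare levels between genes. They are given as a description, with no test. Fos went from 22.5% to 27.2% of the sum to 4.32% to 6.001%, and Jun from 15.7% to 18.1% to 2.37% to 3.36%. Junb made up 34.1% to 39.9% before and 46.6% to 47.8% after stimulation, and Jund 11.4% to 12.4% and 29.2% to 31.5%. Batf, whose level hardly differed, went from 0.908% to 1.198% of the sum to 7.02% to 8.93%. Fosl2 went from 0.237% to 0.292% to 4.08% to 4.38%. In shares of reads, which are not scaled by length, the order of Batf and Fosl2 was reversed. Batf took at most 0.445% of the reads on the members in unstimulated and 3.49% in stimulated libraries. Fosl2 took at least 0.582% and 10.3%. Both read shares were again higher in the stimulated libraries.

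Ratios of RPKM between members within a library differed between the 2 states too. The Jun subfamily exceeded the Fos subfamily 1.63-fold to 2.32-fold in unstimulated and 6.11-fold to 7.80-fold in stimulated libraries. Fos exceeded Fosl2 91.2-fold to 96.0-fold before and 1.03-fold to 1.37-fold after stimulation. The ratio of Batf to Jun was 0.0502 to 0.0760 before and 2.42 to 3.21 after stimulation. No ratio overlapped between the 2 states.

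**Figure D4:**
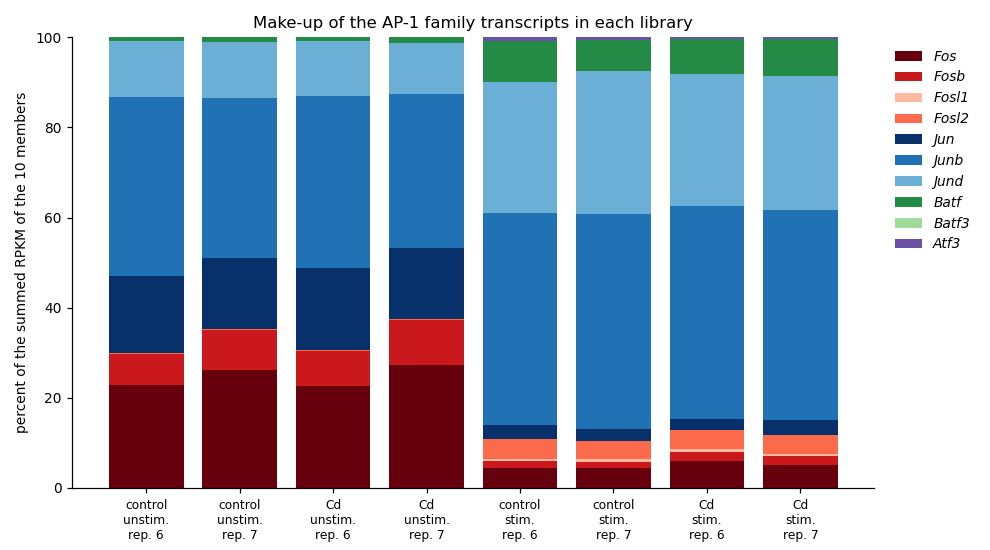
Percent of the summed RPKM of the 10 members (vertical axis) taken by each, 1 bar per library. In the 4 unstimulated libraries Fos takes 22.5% to 27.2% and Jun 15.7% to 18.1%, and in the 4 stimulated ones Junb and Jund together with Batf make up most of the bar.

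Ordered by mean RPKM, the members of unstimulated cells ran Junb, Fos, Jun, Jund, Fosb, Batf, Fosl2 in control and in Cd offspring, and then Atf3 before Fosl1 in control and Fosl1 before Atf3 in Cd offspring. In control cells no neighbours in this order overlapped. In Cd cells Jun (308 to 458 RPKM) and Jund (222 to 307 RPKM) came within 2 RPKM of each other, but between different replicates. Within each Cd library Jun was clearly the higher, 458 against 307 RPKM in replicate 6 and 308 against 222 RPKM in replicate 7. In stimulated cells the order was Junb, Jund, Batf, Fos, Fosl2, Jun, Fosb in both, and the last places of Fosl1 and Atf3 overlapped. Junb stood at places 44 and 51 of all genes in unstimulated control and Cd cells and at places 469 and 437 in stimulated ones.

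The effect of parental Cd was compared within each state of the cells. In unstimulated cells 0 of the 9 members were called at an adjusted p under 0.05 by limma, against 0.896% of all genes tested. At an unadjusted p under 0.05 there was 1 member, beside 1748 of all 12605 genes tested. Voom on the recovered reads called 0 members. The log2 differences of Fosl1 (0.54, 95% interval 0.00 to 1.09) and Atf3 (-0.64, 95% interval -1.27 to -0.02) were the largest and rest on 7 to 17 reads per library, and those of the other 7 members lay between -0.24 and 0.03. The libraries of the 2 exposures did not overlap for Fosl1, higher in Cd offspring, and for Fos, Jund and Atf3, lower in Cd offspring, 4 of 9 members beside 42.3% of all genes. Adjusted p values ran from 0.349 for Atf3 to 0.924 for Fosb (limma).

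The low values of Jun, Junb and Jund among unstimulated cells came from a single library, the Cd unstimulated replicate 7. It held the lowest of the 4 unstimulated values for 6 of the 9 members and for 22 of 25 other immediate early genes, and for 32.2% of all genes tested. Without it the log2 differences were 0.16 for Jun and 0.03 for Junb, in place of -0.13 and -0.24. Zfp36, which codes for an RNA-binding protein that destabilises cytokine mRNAs, had 363 RPKM in this library and 483 to 555 RPKM in the other unstimulated ones, and it was chosen after its values were seen.

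In stimulated cells 0 of 9 members were called by limma at an adjusted p under 0.05, as were 0% of all genes tested. At an unadjusted p under 0.05 there were 2 members, Fos and Fosb, among 414 genes, and voom called 0 members. Fos was 1.37-fold higher in Cd offspring (log2 difference 0.45, 95% interval 0.26 to 0.64, adjusted p = 0.504 from limma). Fosb was 1.56-fold higher (log2 difference 0.64, 95% interval 0.40 to 0.88, adjusted p = 0.430 from limma). Both Cd libraries exceeded both control libraries for Fos, Fosb, Fosl2 and Junb, and both were below for Atf3, so that 5 of 9 members did not overlap, beside 36.7% of all genes. The log2 differences of the other 7 members ran from -0.36 for Atf3 to 0.13 for Fosl2. With 2 libraries against 2, an exact permutation test cannot go below a two-sided p of 0.333.

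Whether the response to stimulation itself differed between Cd and control offspring was tested as an interaction. Limma called 0 of 9 members at an adjusted p under 0.05, against 0.357% of all genes. At an unadjusted p under 0.05 there were 2 members, beside 1332 of all 12605 genes tested. The decrease of Fos was smaller in Cd offspring by 0.61 on the log2 scale (95% interval 0.33 to 0.88, adjusted p = 0.135 from limma), and that of Fosb by 0.62 (95% interval 0.28 to 0.95, adjusted p = 0.193 from limma). Voom on the recovered reads called 1 member, Fos, with a log2 difference of 0.60 and an adjusted p of 0.0493, and in that fit 111 of all genes were called, against 45 by limma on RPKM. The interaction takes its value from all 4 groups, the unstimulated Cd libraries included, in which Fos was lower than in control. For the remaining members the estimates ran from -0.61 for Fosl1 (95% interval -1.38 to 0.16) to 0.36 for Junb (95% interval -0.16 to 0.87).

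**Figure D5:**
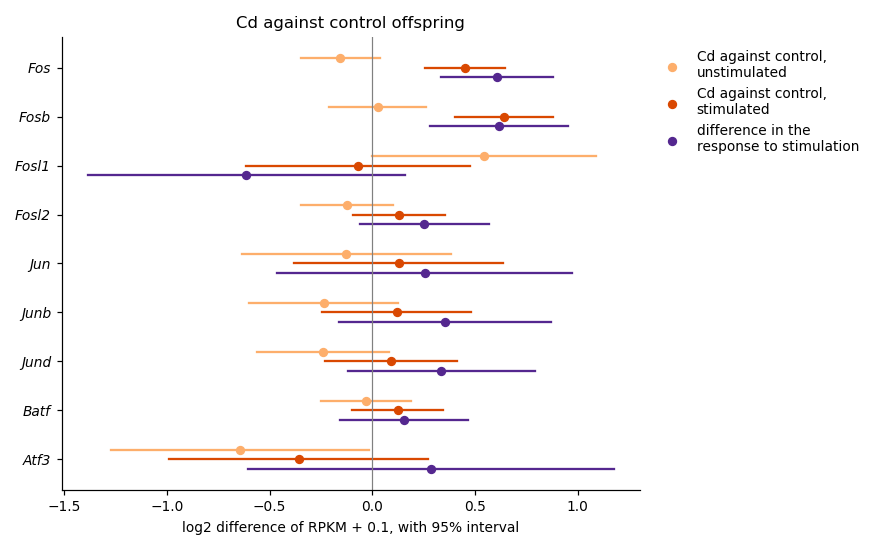
Log2 difference of RPKM + 0.1 between Cd and control offspring (horizontal axis) for the 9 members tested, in unstimulated and in stimulated cells, and the difference in the response to stimulation. Points are limma estimates from 2 libraries per group and lines are unadjusted 95% intervals. The intervals of Fos and Fosb in stimulated cells, 0.26 to 0.64 and 0.40 to 0.88, lie above 0, and no member passed the adjusted threshold.

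The neighbours of the family in its pathway were followed in lists. Their counts stand beside the shares over all genes tested. With stimulation, 11.5% of all genes were called higher and 7.17% lower in control offspring, and 11.4% and 7.24% in Cd offspring. Of 25 other immediate early genes, all tested, 5 were higher and 13 lower in stimulated control cells, with a median log2 fold change of -1.16, and 6 were higher and 11 lower in Cd offspring, with a median of -0.84. The immediate early genes thus split. Klf4, a zinc finger factor of quiescent T cells, fell by 6.69 on the log2 scale in control offspring, from 34.2 and 39.1 RPKM to 0.211 and 0.304 RPKM. Dusp1, a phosphatase that switches off MAP kinases, fell by 4.58, and Ppp1r15a, a regulator of translation under stress, fell by 3.76. Nr4a3, a nuclear receptor induced by T cell receptor signals, rose by 3.12 and Egr3, a zinc finger factor of the same response, by 2.85.

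Among the kinase genes upstream of AP-1, 29 of 30 were tested, and 3 were higher and 2 lower in each kind of offspring, with medians of 0.12 and 0.14. These counts are near the shares over all genes, and the genes named next are given as single genes. Map2k3, an activator of p38, rose by 1.78 on the log2 scale in control offspring, whereas Map2k6, which acts at the same step, fell by 1.82. Prkcq, the protein kinase C isoform of T cell receptor signalling, fell by 1.11. The 8 tested factors of the serum response factor, ternary complex, MRTF and MEF2 groups, which act on the Fos and Jun promoters, had median log2 fold changes of 0.06 and 0.05, near those of all genes. Of 7 ubiquitin ligases and cofactors of Jun proteins, 1 was called higher, Cops5, which codes for the Jun-binding COP9 subunit, with a log2 fold change of 1.13 in control and 1.22 in Cd offspring.

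Of 40 other basic leucine zipper factors, 30 were tested, and 3 were higher and 6 lower in each kind of offspring, with medians of 0.09 and 0.09. Mafg, a small Maf protein, rose by 2.06 on the log2 scale in control offspring, and Bach2, a repressor that competes for AP-1 sites in T cells, by 1.14. Cebpb, a C/EBP factor, fell by 3.41 and Maff by 1.63. Of 9 factors that bind composite sites with AP-1 proteins, Irf4 and Irf8 were the 2 called, both higher.

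Of 20 T cell genes with described AP-1 or BATF sites, 9 were too low to be tested. Of the 11 tested, 7 were higher and 1 was lower in each kind of offspring, with medians of 1.63 and 1.47. Il2, the growth factor of activated T cells, had 0.517 and 0.703 RPKM in unstimulated and 50.2 and 53.0 RPKM in stimulated control cells, and 0.271 to 0.308 and 43.9 to 47.2 RPKM in Cd offspring. Il2 passed the filter on low values through its stimulated libraries, so that the call it received for Cd in unstimulated cells, the 1 such call in this list, is not read further. Tnfrsf9, a costimulatory receptor, rose by 3.94 on the log2 scale in control offspring and Ctla4, an inhibitory receptor, by 2.35.

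In the stress lists, 9 of 10 heat shock genes were tested. Of these 3 were higher and 4 lower after stimulation in control offspring, and 2 higher and 4 lower in Cd offspring. Hsph1 and Hsp90aa1, a chaperone of the HSP110 group and HSP90 alpha, were the 2 heat shock genes called for Cd in unstimulated cells, both higher. Over all genes tested, 0.896% were called in that comparison and 0.357% for the difference in response. Hsph1 had 27.5 and 28.2 RPKM in control and 48.3 and 60.0 RPKM in Cd offspring, without overlap (log2 difference 0.95, adjusted p = 0.00966 from limma). Hsph1 was also the 1 heat shock gene called for the difference in response, with -0.97 on the log2 scale (adjusted p = 0.0462 from limma). Of 5 metal response genes, the metallothionein genes Mt1 (0 to 0.362 RPKM) and Mt2 (0 to 0.212 RPKM) were too low to be tested. The 3 tested, Hmox1, Slc30a1 and Mtf1, had a median log2 difference of -0.13 between Cd and control offspring in unstimulated cells.

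Patterns most like those of the members over the 8 libraries were found among other genes with a mean of at least 5 RPKM, by the Pearson correlation of log2(RPKM + 0.1). The 8 libraries fall into the 2 states of stimulation, which sets most of such a correlation, and it is given as a description. The 3 genes most like Fos were Apbb1ip, Mylip and Epc1 (r = 0.999 for each), and those most like Jun were Itgb7, Ppp1r9b and Rgs14 (r = 0.999, 0.999 and 0.998). For Junb they were Peg13, Rac2 and Frat2, and for Jund Il27ra, Cebpb and Klf11, with r from 0.999 for Klf11 to 0.9999 for Peg13. Batf had no such close companion, and its nearest gene was Taf3 (r = 0.900). Between members, Fos and Fosb correlated at 0.999 and Junb and Jund at 0.998, whereas Batf reached at most 0.707, with Fosb.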

How the data were processed

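Total CD4+ T cells were enriched from spleen by negative selection and sorted, poly-A RNA was sequenced, and the authors used subread for alignment to mm10 and featureCounts for counts on RefSeq transcripts. Versions and strandedness are not given in the sources used here. The sample labels name CD4+ T cells, and a legend of the study names CD4+CD25- conventional cells. The values deposited by the authors are on a log2 scale, log2(RPKM + 1) + 0.0001 as read from the values, for 8 libraries.

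RPKM was obtained by back-transformation, and whole reads were recovered from steps between low values (tolerance 0.01) for 17793 of 17794 genes above 0 in at least 2 libraries. Genes with a mean of at least 0.5 RPKM were fitted as log2(RPKM + 0.1) with 4 group means and trended moderation on 4 residual degrees of freedom (limma 3.58.1 under R 4.3.3), with Benjamini-Hochberg adjustment over all 12605 genes. A fold change on this scale understates that of low genes. A stimulation call needed an adjusted p under 0.01 with a change above 2-fold, and a call for Cd or the interaction an adjusted p under 0.05. Scripts were tested on simulated data. Exon overlaps come from GENCODE vM21, and 25275 gene identifiers matched RefSeq. GENCODE exon bases differ from the counted lengths. They are 2033 against 1705 for Fosl1, 2301 against 1840 for Junb and 1668 against 2878 for Jund. Poisson intervals cover counting error only.

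The members and gene lists were chosen with earlier results of these data known. From each list, up to 4 called genes per comparison with a mean of at least 5 RPKM and the largest changes may be named. A permutation test of the members' shares had been planned and was not run, since shares of chosen genes are given as a description. Alternatives were other pseudocounts, filters, scalings and libraries in the fit, replicate blocks, no trend, voom on recovered reads, and each library left out in turn. For the shares they were shares of reads and each library left out. Python 3.11.15, numpy 2.4.6, pandas 2.3.3 and matplotlib 3.10.9 were used.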

Additional observations from a re-analysis of the deposited data

How the results depend on the processing

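The direction and call of Fos, Fosb, Jun, Junb and Jund with stimulation held under every alternative run, in both kinds of offspring. The stimulation counts of 7 members became 5 with a pseudocount of 1 RPKM or a mean of at least 1 RPKM, the latter because Fosl1 and Atf3 were then not tested. The median log2 fold change of all genes in control offspring moved from 0.07 to -0.03 under quantile normalization. Voom called 1 member for the difference in response, and the cause was not tested.

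Over all genes, the 113 calls for Cd in unstimulated cells became 65 without a filter, 52 with only the libraries of the comparison, 14 without the trend, 211 with voom, and 19 to 105 with 1 library left out (19 and 67 without control unstimulated replicates 6 and 7). The 0 calls for Cd in stimulated cells became 9 without a filter, 2 without the trend, and 0 to 3 with 1 library left out (3 without control stimulated replicate 7). The 45 calls for the difference in response became 28 without a filter, 25 with the replicate block within exposure, 4 without the trend, 111 with voom, and 2 to 63 with 1 library left out (27 without control unstimulated replicate 6, 3 and 28 without control stimulated replicates 6 and 7, and 2 without Cd stimulated replicate 7). The fits left with 1 library in a group assume that it varies like the others. The causes were not tested.

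Estimates near 0 that were not called changed sign. For Cd in unstimulated cells, quantile normalization gave 0.0301 for Fos and 0.0446 for Jun, and leaving out 1 library gave -0.131 to 0.183 for Fosb, -0.0628 to 0.000236 for Batf, -0.411 to 0.158 for Jun and -0.503 to 0.0280 for Junb. For Cd in stimulated cells, it gave -0.0153 to 0.261 for Batf, -0.194 to 0.0524 for Fosl1 and -0.141 to 0.397 for Jun. For the difference in response, a pseudocount of 1 RPKM gave -0.0183 for Atf3, and leaving out 1 library gave -0.0304 to 0.539 for Jun.

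With the replicate number as a block, 7, 7, 0, 0 and 0 members were called in the 5 comparisons, and 76 genes for Cd in unstimulated cells. Deviations from the group mean of the unstimulated and stimulated libraries numbered 6 correlated at 0.0635 in control and 0.00851 in Cd offspring. These values give no sign of pairing but do not settle whether equal numbers share an animal. The difference in response has no separate fit on only the libraries of the comparison, and a block within exposure cannot be fitted for Cd. Depth limits Fosl1, Atf3 and Batf3, which rest on at most 71 reads per library.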
